A study of Drosophila melanogaster with 6 samples.

Results

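Pointed (pnt) and Ets97D encode transcription factors of the Ets family, and their transcripts were followed in Drosophila melanogaster cells kept cool. The measurements are those of 1 probe for pnt (A_09_P044171) and 3 probes for Ets97D (A_09_P010651, A_09_P051946 and A_09_P141360). The probes were taken by gene name, and the genes were chosen with earlier results of these data known. The 2 genes are among 2731 that could be named on the array, their 4 probes are among 32162 gene probes in all, and all 4 were among the 18789 probes that could be tested. HB10 cells were cultured for 24 h at either 14 or 24 °C, with 3 biological replicates per temperature and 1 single-colour array per culture. Both groups are cultures of the same line. The line was derived from embryos in which Act5C-GAL4 drove an activated form of the small GTPase Ras85D ubiquitously, so the controls carry the activated Ras transgenes as well. All values therefore come from a single line with this genotype, and a lower number of expressing cells and less RNA per cell cannot be told apart in bulk RNA.

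Ets proteins share a winged helix-turn-helix DNA-binding domain that recognizes sites with a GGAA core. Pnt is the transcriptional activator at the end of many receptor tyrosine kinase (RTK) pathways in flies. A ligand activates the receptor, Ras and the kinase cascade follow, and the MAP kinase encoded by rolled (rl) phosphorylates the Pnt-P2 isoform, while the P1 isoform is active without that step. Pnt competes for sites with the Ets repressor Yan, encoded by aop. Ets97D is the fly counterpart of the DNA-binding subunit of mammalian NRF-2/GABP, which is known for its role in the expression of nuclear genes for mitochondrial proteins.

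The study brought both factors together at a cool-responsive enhancer of the gene pastrel (pst), examined in S2R+ cells. In HB10 cells, the study saw no apparent effect of temperature on pst transcripts. The question addressed with the arrays is whether the transcripts of the 2 factors themselves depended on temperature in HB10 cells. A stretch of 69 bases of that enhancer on chromosome 3L is shown because internal deletions were used there to map enhancer activity and because it holds several GGAA words. It runs from the start of the internal deletion d3 to the end of the 5-base deletion d18, read 5′ to 3′ from the study's synthetic fragments, with GGAA in capitals. The first GGAA words lie at its start, on the side of d3, whose effect the study's text does not give by itself. Deletions further along the stretch were described as reducing enhancer activity, and 1 of them as eliminating it. The position of the last GGAA relative to those deletions was not mapped here.
pst_E1n stretch: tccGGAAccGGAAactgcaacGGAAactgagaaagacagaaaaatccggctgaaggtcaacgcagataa
The letters GGAA occurred 3 times on the strand shown, and TTCC, the same core on the opposite strand, occurred 0 times. At least 1 of these words was present in 76.5% of the 310 windows of the same length along the 378 bases of the fragment, and 3 or more in 15.5% of them. The windows overlap each other and the stretch was chosen partly for these words, so the shares are no test. A match of these letters is a description of the sequence and not a bound site.

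The transcripts of both genes, which lie on chromosome 3R, were targeted in the study by the following qRT-PCR primers. They are shown as primers, in lower case throughout, and not as stretches read along the transcripts.
pnt, first primer: atgcgaatgcctactacac
pnt, second primer: gttattgttgttgctgctgg
Ets97D, first primer: cgctcagcatgctcaaatcac
Ets97D, second primer: accaggccttctcccttga
The pnt probe is assigned to transcript FBtr0089717, and the 3 Ets97D probes are all assigned to FBtr0085088, so that they share a target and are not replicates of each other. With 1 named probe, the isoforms of pnt cannot be told apart. Other probes of pnt may be among those that could not be named.

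All spots of the 4 probes were well above background on all 6 arrays, and 0 were saturated. The raw signal of pnt was 71.5 to 159 times its local background. The corresponding ranges were 16.4 to 39.6 for A_09_P010651, 29.5 to 78.9 for A_09_P051946 and 15.7 to 41.9 for A_09_P141360. In each case the lowest value was that of replicate 2 at 14 °C, the array with the lowest upper quartile of scanner-corrected signal (881, against 1381 to 1665 on the other arrays). Between 25152 and 25884 of the 43602 gene spots per array were well above background. The arrays were on 2 slides, of which slide 1 held replicate 1 of both temperatures and slide 2 held replicates 2 and 3 of both, so that temperature was balanced over slides. The muscle precursor markers twi, vg and ct, 3 of 9 listed markers that could be linked to a tested probe, were well above background on all 6 arrays. Of the hemocyte markers, 2 of 9 could be linked. The probe for srp was well above background on 0 arrays, and that for ush on all 6.

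Transcript levels of pnt were slightly higher in the cool, and the difference did not pass the test. The normalized log2 signals were 11.92, 11.98 and 12.35 in replicates 1, 2 and 3 at 14 °C. At 24 °C they were 11.84, 11.90 and 11.84. Replicate 3 at 14 °C stood above all other arrays, while replicates 1 and 2 lay close to the control cultures. The groups averaged 12.08 ± 0.23 and 11.86 ± 0.03 (SD, n = 3). The log2 fold change of 0.23 (SE 0.11) corresponds to 1.17-fold, and limma gave it an adjusted p of 0.185. Its 95% confidence interval reached from 0.98-fold to 1.40-fold. Among all tested probes, 35.5% had a larger change in either direction.

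The 2 groups did not overlap for pnt, but they were only 0.023 apart on the log2 scale. Non-overlapping groups were found for 40.6% of all tested probes. The separation also depended on how the 10 pnt spots of an array were combined. With their mean in place of their median, the values were 11.88, 11.97 and 12.31 at 14 °C and 11.79, 11.92 and 11.77 at 24 °C, and the groups overlapped. Overlap was also present after median scaling of all gene spots and after scaling to spike-in spots, so that the groups were separate in 5 of the 8 settings compared. Without replicate 3 at 14 °C the log2 fold change of pnt fell to 0.09, and without any 1 of the other arrays it was 0.22 to 0.31.

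**Figure D1:**
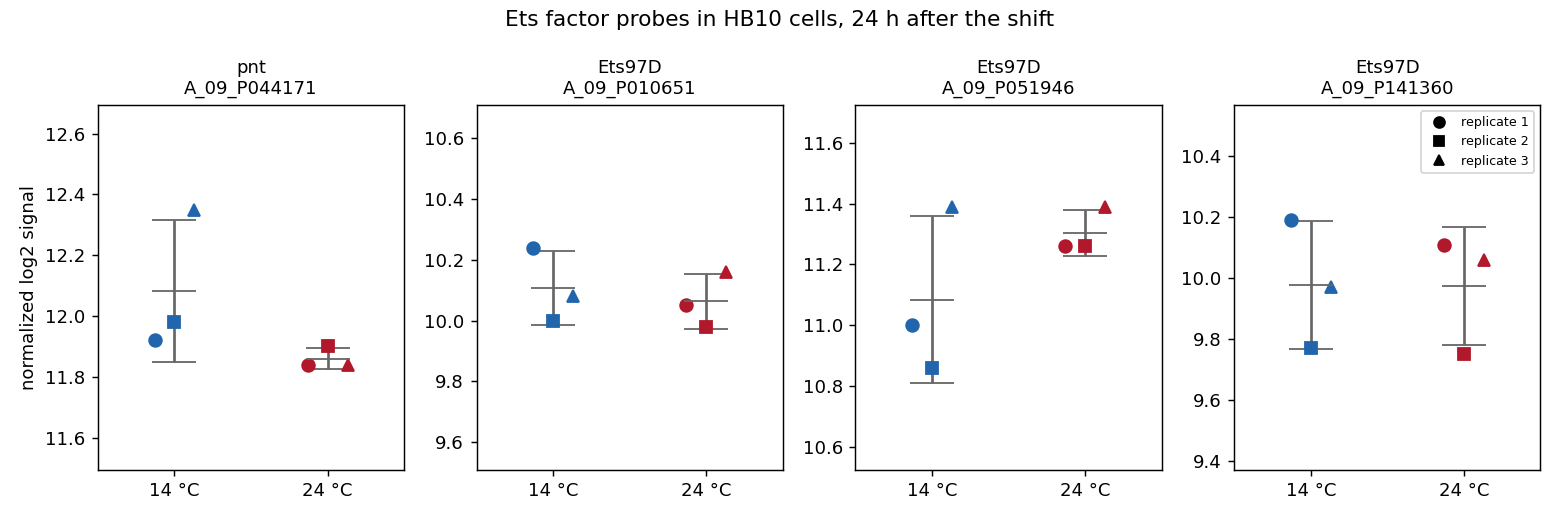
Normalized log2 signal (vertical axis, 1.2 log2 units in every panel) of the pnt probe and the 3 Ets97D probes at 14 °C (blue) and 24 °C (red), with 1 symbol per culture and the mean with SD in grey. Replicate 3 at 14 °C is highest for pnt at 12.35, and both temperatures overlap in each Ets97D panel.

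The 10 spots of the pnt probe gave a closer view of this difference. Within an array their log2 values spread over 0.53 to 0.64, with an SD of 0.20 to 0.24. The median of an array lies between the fifth and the sixth spot in rising order, which were at 11.81 and 12.03 on replicate 1 at 14 °C but at 11.86 and 11.93 on replicate 2 at 24 °C. The order of the spots recurred from array to array, with Pearson correlations of 0.95 to 0.99 between arrays over the 10 spots. These spots were hybridized with the same labelled RNA and describe the arrays, not the cultures. Each of the 10 spots was higher on average at 14 °C, by 0.19 to 0.26 on the log2 scale. All 10 were highest on replicate 3 at 14 °C, and 2 of the 10 had no overlap between the temperatures. In the signals corrected by the scanner software the spots of an array differed far less, with an SD of 0.027 to 0.065, and there the log2 fold change of pnt was 0.25 (SE 0.12).

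**Figure D2:**
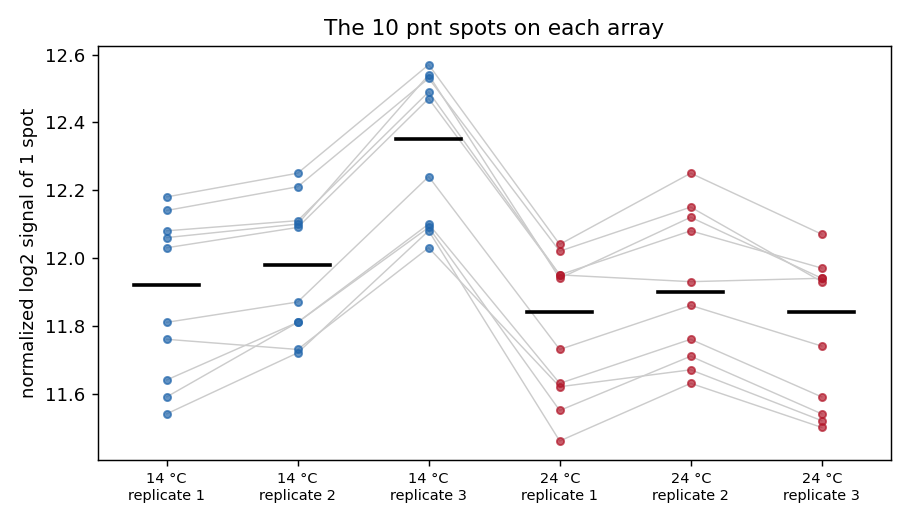
Normalized log2 signal of each of the 10 pnt spots (points, joined by grey lines across arrays) on the 6 arrays, with the median per array as a black bar. The spots keep nearly the same order from array to array, and all 10 are highest on replicate 3 at 14 °C.

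For Ets97D, none of the 3 probes passed the test, and 1 of them was lower on average in the cool. The probe A_09_P051946 had 11.00, 10.86 and 11.39 at 14 °C. Its values at 24 °C were 11.26, 11.26 and 11.39. Replicates 1 and 2 were thus lower in the cool, while replicate 3 was equal at both temperatures. The log2 fold change was -0.22 (SE 0.13) and its 95% confidence interval ran from 0.702-fold to 1.05-fold, around a mean of 0.859-fold (adjusted p = 0.256, limma). Without replicate 3 at 14 °C it was -0.37 with an adjusted p of 0.016 (0.016 to 0.971 over all alternatives), and without replicate 2 at 14 °C it was -0.11.

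The other Ets97D probes were nearly level. A_09_P010651, which has 2 spots per array, had 10.24, 10.00 and 10.08 at 14 °C and 10.05, 9.98 and 10.16 at 24 °C. The ranges of both temperatures overlapped. Its log2 fold change was 0.05 (SE 0.09), with an interval from 0.896-fold to 1.19-fold and an adjusted p of 0.768 (limma). A_09_P141360 had 10.19, 9.77 and 9.97 at 14 °C and 10.11, 9.75 and 10.06 at 24 °C. Here the replicates of each temperature differed more than the temperatures did, with replicate 2 lowest in both. Its log2 fold change was 0.00 (SE 0.13), with an interval from 0.819-fold to 1.23-fold and an adjusted p of 0.993 (limma).

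Differences between the probes of a gene were examined with diffSplice to see whether the 3 Ets97D probes moved apart. Set against the other probes of the gene, A_09_P051946 changed by -0.24, A_09_P010651 by 0.16 and A_09_P141360 by 0.09 on the log2 scale. The adjusted Simes p for Ets97D was 0.823, compared with 2.44% of 3197 genes with at least 2 tested probes that passed at 0.01. Over the 6 arrays, the probes A_09_P010651 and A_09_P141360 went up and down together (Pearson r = 0.85), while A_09_P051946 had r = 0.02 with the former and r = 0.18 with the latter. These correlations describe 6 arrays that share normalization and are not tests.

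Counted together, 0 of the 4 probes were CoolUp or CoolDown, the adjusted p under 0.01 with at least 2-fold change that limma gave for 0.931% of all tested probes. Likewise 0 of 4 passed at an adjusted p under 0.01 without the fold requirement, against 11.9% of all tested probes. These shares depended on the arrays and the signal used. The 2237 probes that passed became 829, 803 and 1029 without replicate 1, 2 or 3 at 24 °C and 1195 without replicate 1 at 14 °C, and the 175 CoolUp and CoolDown probes became 707 with the scanner-corrected signal. At an unadjusted p under 0.05 the count was 0 of 4 against 36.2%. All 4 confidence intervals lay within 2-fold in either direction under quantile normalization. With median scaling of all gene spots, which raised the median change of all tested probes to 0.41, the log2 fold changes were 0.91 for pnt and 0.60, 0.42 and 0.55 for the Ets97D probes in the order A_09_P010651, A_09_P051946 and A_09_P141360, with SEs of 0.39 to 0.45. The sign of A_09_P051946 was thereby turned. Relative to that median, pnt stood at 0.51 and the Ets97D probes at 0.20, 0.01 and 0.15.

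Because both factors can occupy the same kind of site, the change of pnt was also set against that of Ets97D within each array, which removes any factor common to all probes of an array. The signals of different probes cannot be compared as levels, so only the change of their difference between temperatures is read. Against A_09_P051946, the difference was 0.92, 1.12 and 0.96 at 14 °C and 0.57, 0.63 and 0.45 at 24 °C. All 3 cool cultures were above all 3 control cultures. A share of such pairs over the array was not computed, and single probes did not overlap for 40.6% of those tested. This pair sets the highest log2 fold change among the Ets probes against the lowest. The mean difference was 0.45 larger at 14 °C, or 1.36-fold (1.00 ± 0.11 against 0.55 ± 0.09, SD). In the exact two-sided permutation test over the 6 arrays this gave p = 0.10, the smallest value that 3 against 3 cultures allow, and 0.30 after adjustment over the 3 pairs.

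The other pairs differed less. Against A_09_P010651, the difference was 1.68, 1.98 and 2.27 at 14 °C and 1.78, 1.92 and 1.67 at 24 °C, a change of 0.18 with overlapping groups (exact permutation p = 0.40, adjusted 0.40). Against A_09_P141360, it was 1.73, 2.21 and 2.38 at 14 °C and 1.73, 2.14 and 1.78 at 24 °C, a change of 0.22, again with overlap (exact permutation p = 0.30, adjusted 0.40). The change of pnt was the larger one in all 3 pairs, but these share the same pnt values. Within slide 2 the changes against A_09_P010651, A_09_P051946 and A_09_P141360 were 0.32, 0.50 and 0.34. Without replicate 3 at 14 °C, the change against A_09_P010651 was 0.03 and that against A_09_P141360 was 0.09, whereas against A_09_P051946 it was 0.47.

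**Figure D3:**
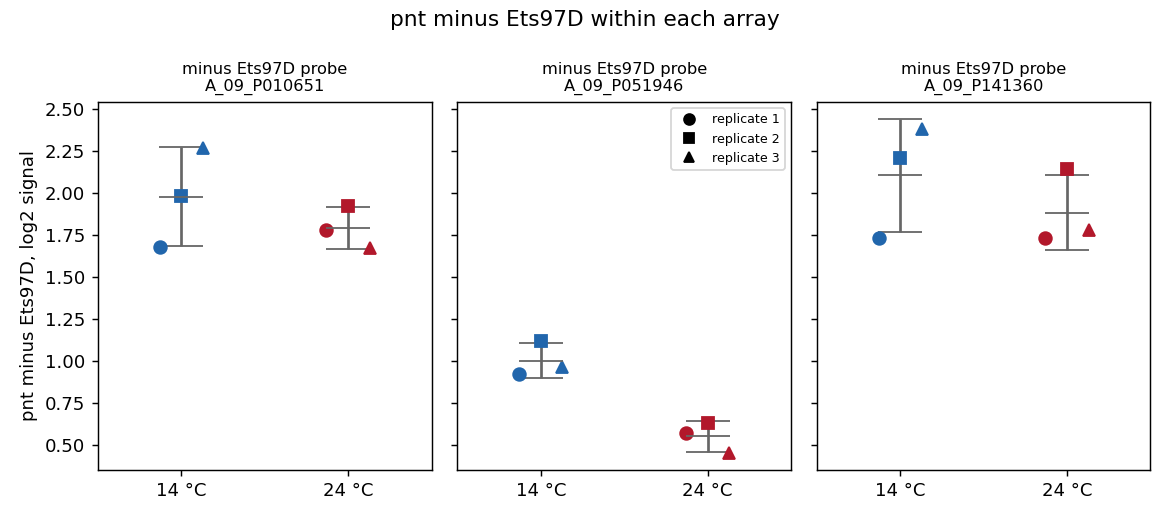
Log2 signal of pnt minus that of each Ets97D probe within the same array (vertical axis) at 14 °C (blue) and 24 °C (red), with 1 symbol per culture and mean with SD in grey. The temperatures are separate only against A_09_P051946, at 0.92 to 1.12 and 0.45 to 0.63, respectively.

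Values within each slide were compared as well. On slide 1, with 1 culture per temperature, pnt was 0.08 higher at 14 °C on the log2 scale. On slide 2, with 2 cultures per temperature, it was 0.30 higher. For A_09_P051946 the values were -0.26 and -0.20, and for A_09_P010651 and A_09_P141360 they were 0.19 and -0.03, and 0.08 and -0.04, so that the latter 2 probes had opposite signs on the slides.

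The pathway that acts on Pnt was examined next, with lists of genes. They covered RTK ligands, receptors, ligand processing factors, the Ras-MAPK cassette and its inhibitors. Further lists held partners and co-repressors of the Ets repressor or of the response to RTK signals, the JAK-STAT pathway and the other Ets factors. The last list held pst and ftz-f1, which encodes a nuclear receptor examined at the same enhancer. Annotation linked 21 of the 74 genes on these lists to a tested probe, not counting pnt and Ets97D. None of the other Ets factor genes, pst and ftz-f1 could be linked. Of these 21 genes, 6 rose and 1 fell at an adjusted p under 0.01 (limma), while 6.13% and 5.78% of all tested probes did so in the respective direction. At an unadjusted p under 0.05 (limma) there were 11 of 21, against 36.2%. Groups did not overlap for 11 of 21, against 40.6%. Each gene stands by its tested probe of highest mean signal, whereas the shares are over all tested probes, named or not. The lists were written with earlier results of these data known. The median log2 fold change was 0.17 for the 21 genes and -0.01 for all tested probes. The count of 7 fell to 4 without replicate 1 at 14 °C and to 3 without replicate 1, replicate 2 or replicate 3 at 24 °C. After either median scaling it was 0, as it was for all tested probes.

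Among the RTK ligands, 4 of 7 genes rose. The gene trk, which encodes the ligand of the receptor Torso, had 9.33, 9.29 and 9.20 at 14 °C and 8.32, 8.21 and 8.21 at 24 °C. All cool cultures were above all controls (2.03-fold on average, log2 fold change 1.02, SE 0.08, adjusted p = 6.37e-05, limma), and its other tested probe had 1.04. The genes ths and pyr, which encode ligands related to fibroblast growth factor (FGF) for the receptor Heartless, were 1.75-fold and 1.42-fold higher (adjusted p of 0.00115 and 0.0041, limma). The groups did not overlap for these probes. The second tested probe of ths had a log2 fold change of 0.75 and passed as well (adjusted p = 0.000877), whereas that of pyr had 0.25 with overlapping groups and did not pass (adjusted p = 0.164). The Egfr ligand gene grk was 1.56-fold higher (adjusted p = 0.00762, limma). The remaining ligand genes did not pass. They were spi, the gene for the broadly used Egfr ligand Spitz (0.12), Pvf3, which encodes a ligand related to platelet-derived and vascular endothelial growth factors (0.20), and vn, the gene for the neuregulin-like Egfr ligand Vein (-0.31, adjusted p = 0.0531, limma).

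The 3 receptor genes did not move together. Egfr, which encodes the receptor for Spitz, Vein and Gurken, fell. Its values were 8.64, 8.50 and 8.67 at 14 °C and 8.94, 9.07 and 9.14 at 24 °C, with all cool cultures below all controls (0.734-fold, log2 fold change -0.45, adjusted p = 0.00603, limma). Its other 2 tested probes had -0.25 and -0.28, with adjusted p of 0.0492 and 0.0665. The insulin receptor gene InR was 1.89-fold higher (adjusted p = 0.000508, limma). Of its 6 tested probes 4 passed, and the other two had log2 fold changes of 0.65 and 0.34 with adjusted p of 0.0205 and 0.0723. For tor, the gene for the Trunk receptor Torso, the log2 fold change was 0.27 with an adjusted p of 0.121. Its second tested probe had 0.33 without overlap of the groups (adjusted p = 0.0261, limma).

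Downstream of the receptors, only 2 genes of the Ras-MAPK cassette could be followed. The gene rl, which encodes the MAP kinase that phosphorylates Pnt-P2, had 12.39, 11.95 and 12.56 at 14 °C. Its values at 24 °C were 11.63, 11.50 and 11.60. All cool cultures were above the controls, with a 1.65-fold difference (log2 fold change 0.72, SE 0.14, adjusted p = 0.00572, limma). Its second probe had 0.39 with an adjusted p of 0.0115. Sos, the gene for the Ras exchange factor, had -0.09 and an adjusted p of 0.606. The other genes tested here did not pass either. These were S, whose product Star is needed for Spitz processing (-0.11, adjusted p = 0.389), RasGAP1, which encodes a negative regulator of Ras (-0.06, adjusted p = 0.64), and Mkp3, which encodes a MAP kinase phosphatase (0.06, adjusted p = 0.652).

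Of the listed partners and co-repressors of the Ets repressor or of the response to RTK signals, 0 of 4 genes passed, against 11.9% of all tested probes. The co-repressor genes gro and CtBP had log2 fold changes of 0.30 and 0.17, the repressor gene ttk had 0.06, and sina, which encodes a ubiquitin ligase subunit acting on Tramtrack, had 0.35 with an adjusted p of 0.0437. The second tested probe of ttk had 0.24 (adjusted p = 0.0551, limma). Further tested probes of sina had 0.31 (adjusted p = 0.0956, limma) and 0.00. In the JAK-STAT pathway, the ligand gene upd3 had 0.11. Su(var)2-10, which encodes an inhibitor of the PIAS family, had -0.22 (adjusted p = 0.111), but its second tested probe A_09_P009626 had -0.49 with an adjusted p of 0.00275. Of the cell type markers, ct was 1.30-fold higher (adjusted p = 0.00917, limma), whereas twi had -0.25, vg 0.11 and ush 0.27 without passing. The second tested probe of twi had -0.28 without overlap of the groups (adjusted p = 0.0302, limma), and that of vg had 0.16. The part of cell composition in the values of pnt and Ets97D was not tested.

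**Figure D4:**
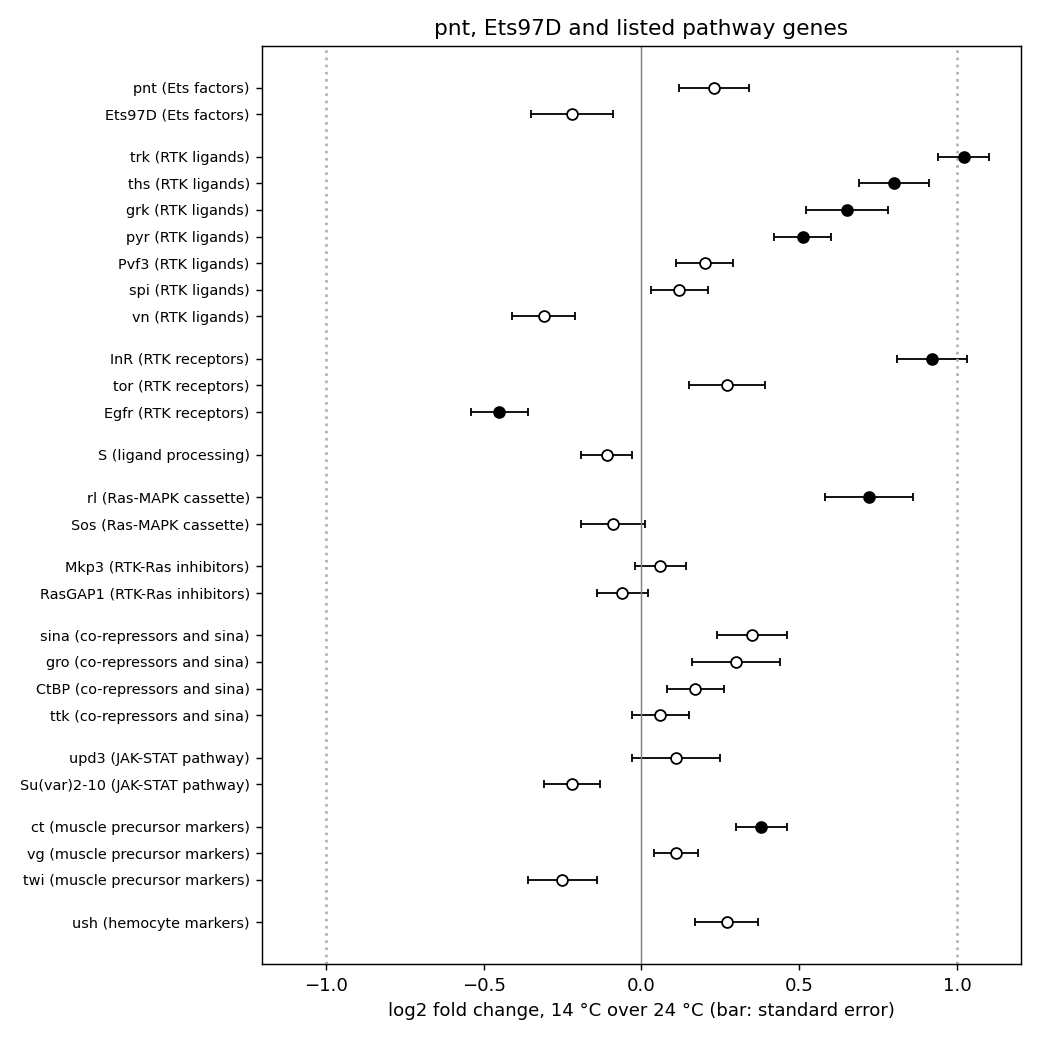
Log2 fold change (14 °C over 24 °C, horizontal axis, bars are SE) of pnt, Ets97D and the listed genes, each by its tested probe of highest mean signal. Filled symbols have an adjusted p under 0.01, open symbols do not, and dotted lines mark 2-fold. The symbols of pnt (0.23) and Ets97D (-0.22) are open, and trk, ths, grk, pyr, InR and rl are filled on the right and Egfr on the left.

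Finally, the named probes with a profile most like that of each Ets probe were listed by Pearson correlation over the 6 arrays, as a description. Closest to pnt were Tm1, which encodes a tropomyosin (r = 0.979), pain, which encodes a TRP channel (0.977), tsh, which encodes a zinc finger factor (0.969), NKAIN (0.963) and sick (0.956). Their own log2 fold changes were 0.18 to 0.45, none of which passed. Closest to A_09_P051946 were CG9667 (0.995), the fatty acid desaturase gene Desat1 (0.994), CG15356 (0.993), trc (0.992) and Zdhhc8 (0.988), with log2 fold changes from -0.29 to -0.10. The probe A_09_P010651 was most like those of CalpA (0.969), CG34109 (0.961), CycB3 (0.961), garz (0.954) and CrebA (0.937). For A_09_P141360 these were CtsL2 (0.984), stai (0.959), CG5004 (0.957), Cpr47Ef (0.952) and EndoA (0.931). The 3 Ets97D probes thus had no gene in common among their 5 closest. With 6 arrays and 2893 or 2895 named probes compared, these correlations describe a likeness of profiles and no more.

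**Figure D5:**
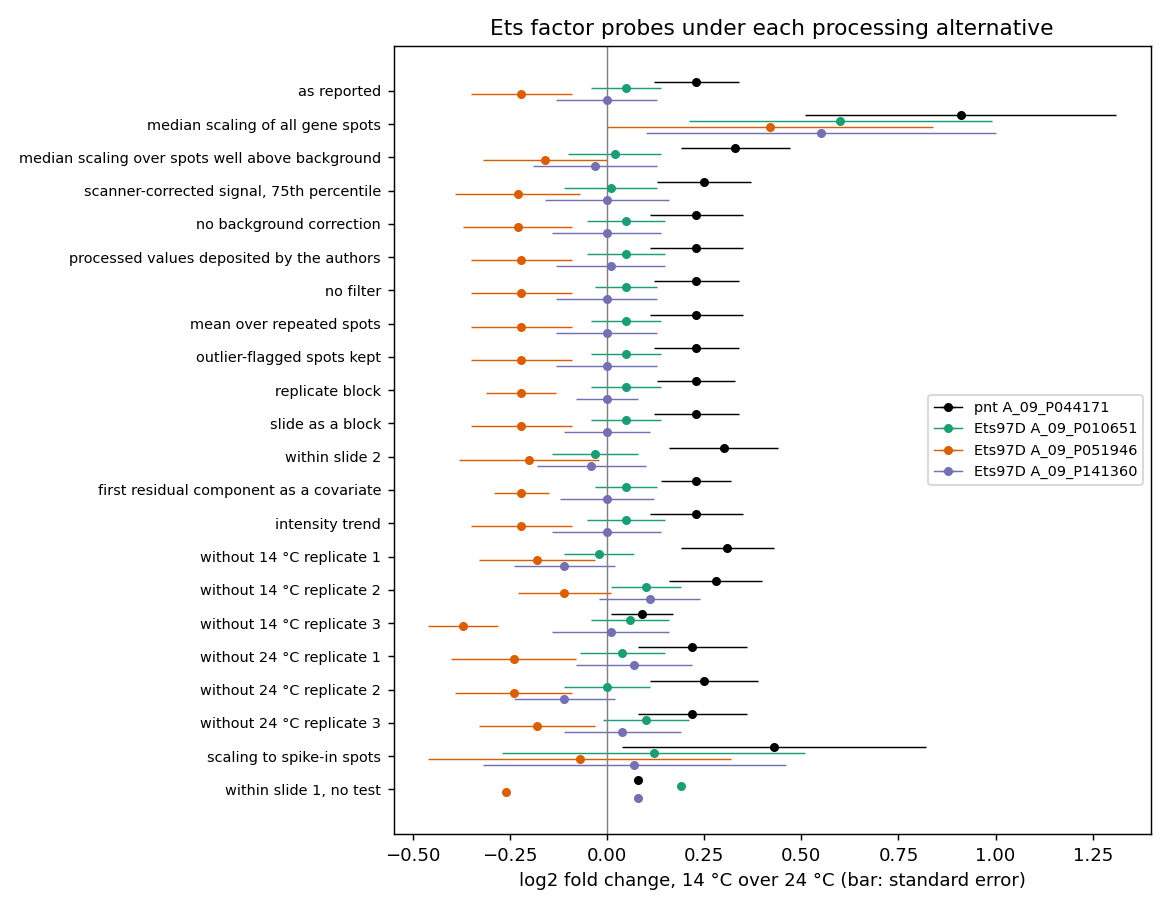
Log2 fold change (14 °C over 24 °C, horizontal axis, bars are SE) of the 4 Ets probes under each processing alternative (vertical axis). The pnt probe (black) is above 0 throughout, from 0.08 to 0.91, whereas A_09_P051946 (orange) is below 0 in all settings but the median scaling of all gene spots (0.42).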

How the data were processed

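Total RNA of 6 HB10 cultures was labelled with Cy3 and hybridized to 1 single-colour Agilent Drosophila array each. Per the file headers, spots were quantified with Feature Extraction 10.7.3.1, and the deposited intensity values are the median pixel brightness of each spot and of its local background, without normalization between arrays. The log2 values deposited by the authors were background-corrected (normexp) and quantile-normalized with limma according to the methods, which also describe a surrogate variable step. Whether that step is included in the deposited log2 values is not given in the sources used here, and they served as an alternative.

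Spot medians were background-corrected with limma 3.58.1 (normexp, offset 50), control and outlier-flagged spots were removed, log2 values were quantile-normalized, and spots of a probe were combined by their median. A probe was tested if at least a share of 0.5 of its spots was well above background on 2 or more arrays of a group, which left 18789 of 32162 probes. Groups were compared with limma (lmFit, eBayes) in R 4.3.3, with Benjamini-Hochberg adjustment over all 18789 probes. An adjusted p under 0.01 is called passing, and passing with a change of at least 2-fold is called CoolUp or CoolDown. Differences between probes of a gene were tested with diffSplice. The number of arrays limits the precision. The fits were tested on simulated data before use.

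Probes were named through annotation given with the study and RefSeq accessions (Release 6 assembly), which gave a symbol to 4065 probes (12.6%). The array was designed on an older build, so no coordinates are given. A list gene is represented by its tested probe of highest mean signal. The genes named are the 4 member probes' genes, every list gene linked to a tested probe, and the 5 probes of other genes most correlated with each member. The 2 Ets genes and all lists were chosen with earlier results of these data known.

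Samples of the same replicate number deviated together from their group means (correlations of 0.20, 0.30 and 0.39 over the tested probes for replicates 1, 2 and 3). Samples of unlike number had correlations of -0.3 to 0.05. Deviations within a group cancel, so these values are not independent, and replicate 1 of both temperatures shared a slide. The numbers in the sample titles were taken to pair the cultures in an alternative fit. Further alternatives covered scaling, background correction, filters, slide, a residual component and leaving out each array, and scaling to spike-in spots was chosen after seeing the data.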

Additional observations from a re-analysis of the deposited data

How the results depend on the processing

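None of the 4 Ets probes passed at an adjusted p under 0.01 in any alternative with a test. The log2 fold change of pnt was 0.08 to 0.91 over 21 alternatives, with adjusted p of 0.0901 to 0.723. For A_09_P051946 the sign turned under median scaling of all gene spots (0.42). The change of A_09_P010651 turned within slide 2 (-0.03) and ranged from -0.02 to 0.10 when each array was left out. That of A_09_P141360 was -0.03 after median scaling over spots well above background, 0.00 with the scanner-corrected signal and without background correction, and -0.04 within slide 2, with a range of -0.11 to 0.11 on leaving out each array. Leaving out each array gave 0.09 to 0.31 for pnt and -0.37 to -0.11 for A_09_P051946. Scaling to spike-in spots, chosen after seeing the data, gave 0.43 (SE 0.39) for pnt. For A_09_P051946 the adjusted p was 0.016 to 0.971, and for the difference between the Ets97D probes it was 0.192 to 1.00. The difference of pnt and Ets97D kept its sign in all 16 alternatives for each pair, at 0.39 to 0.50 against A_09_P051946. These alternatives are not independent, since a factor common to an array cancels in the difference. Both median scalings and spike-in scaling therefore gave the same 0.31, 0.50 and 0.36 against A_09_P010651, A_09_P051946 and A_09_P141360. The number of pathway genes that passed was 0 under both median scalings, in which 0 of 18789 probes passed, and 3 to 7 on leaving out each array. Of all tested probes, 2237 passed as reported, 1322 with the scanner-corrected signal, 67 within slide 2 and 17 with spike-in scaling. On leaving out each array 803 to 2259 did. More passed with the replicate number as a block (3311) and with the residual component as a covariate (3339). The fit with the replicate number as a block left 7 pathway genes and gave pnt an adjusted p of 0.111, A_09_P051946 0.101 and the difference between Ets97D probes 0.342. This pairing changed no call among the 4 Ets probes. The cause of these differences was not tested. With 3 cultures per temperature, changes of the size seen for pnt and Ets97D did not pass the test.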
